A study of Homo sapiens with 4 samples.

Results

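The comparison described here is HCC827 cells transfected with an siRNA against CDH3 (siCDH3) set against HCC827 cells transfected with a control siRNA (siCTR). Members are the 11043 of 58174 genes in the deposited table that reach a TPM of 5 in one or both HCC827 libraries. HCC827 is a lung adenocarcinoma cell line that grows as an epithelial sheet and depends on a mutant, constitutively active EGFR. RNA was taken 48 h after transfection, and each group had 1 library. H1299, a non-small cell lung cancer line of mesenchymal character, was treated in the same way with the same 2 siRNA labels and is used only for values set side by side. The sources used here do not give the siRNA sequences, the number of siRNAs in a pool or the effect on P-cadherin protein. With 1 library per group no difference has a replicate check, none was tested, and differences are described by size only.

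CDH3 encodes P-cadherin, a classical cadherin that joins neighbouring epithelial cells through its extracellular domain. Its cytoplasmic tail binds p120-catenin, which holds the cadherin at the cell surface, and beta-catenin, which links it through alpha-catenin to actin. E-cadherin, encoded by CDH1, uses the same catenins and is the main cadherin of most simple epithelia, while P-cadherin is typical of basal layers and is raised in many carcinomas.

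The log2 ratio of TPM + 1, siCDH3 over siCTR, had a median of 0.03 and an SD of 0.34 over the 11043 genes. TPM (a transcript abundance) is scaled by transcript length and by the library total, so it gives relative abundance and keeps no read depth, which is unknown. Of these genes 10145 (91.9%) lay within 0.5 of 0, and the 1st and 99th percentiles were -0.94 and 1.005. At least 2-fold higher in siCDH3 were 111 genes (1.01%), 92 (0.833%) were lower by as much, and both make 203 (1.84%). The share past 2-fold was 3.36% for the 2556 genes with a mean TPM under 10, between 1.29% and 1.52% in the 3 classes from 10 to 200, and 0.461% for the 434 genes at 200 or more. Just inside the filter lay NMB, with a higher TPM of 5.0004, and just outside it lay GPRIN1, with 4.99974. From here on, a pair of values gives TPM in siCTR and then in siCDH3, followed in brackets by the log2 ratio of TPM + 1. Near the 2-fold line MON2 (1.01) was counted as higher, whereas TRIB3 (0.999), PI3 (0.999) and RAB11A (0.999) were not.

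**Figure D1:**
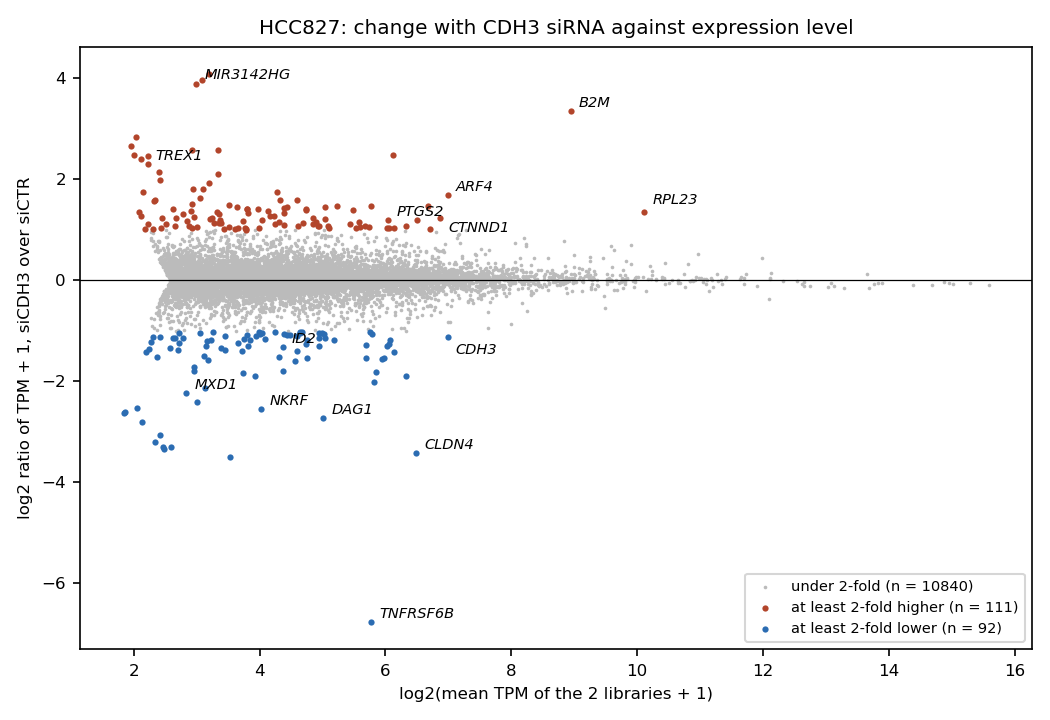
Each point is 1 of the 11043 genes, with the log2 of the mean TPM of both HCC827 libraries plus 1 on the x axis and the log2 ratio of TPM + 1, siCDH3 over siCTR, on the y axis. The 111 higher and 92 lower genes past 2-fold lie mostly at low and middle levels, with B2M and RPL23 far to the right.

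The 2 libraries were alike in the quantities that could be read from the table. A TPM of 5 was reached by 10713 genes in siCTR and 10780 in siCDH3, and mitochondrially encoded protein genes took 27.6% and 26.4% of all TPM. Epithelial markers were high: EPCAM had TPM values of 437 with siCTR and 409 with siCDH3 (-0.10) and KRT19 had 1627 and 1573 (-0.05). Of the lung markers, the adenocarcinoma marker NAPSA had 131 and 131 (0.00), while the surfactant genes SFTPB, at a TPM of 2.24 and 2.29, and SFTPC, at 0 and 0.0797, did not pass the filter. Of mesenchymal markers FN1, given below with its list, was well above the filter. CDH2, the cadherin of mesenchymal cells, and PDGFRA, a fibroblast receptor, were listed at 0 in both libraries. Of the hematopoietic, endothelial and fibroblast lists, 1 of 20, 1 of 12 and 2 of 15 genes passed the filter, led by CD68, a lysosomal protein gene, with 121 and 142 (0.23), and no gene of these lists was past 2-fold. Their summed TPM was 127 in siCTR and 148 in siCDH3 for the hematopoietic list, 10.5 and 10.7 for the endothelial list, and 14.8 and 13.9 for the fibroblast list.

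CDH3 itself had TPM values of 173 with siCTR and 78.8 with siCDH3 (log2 ratio -1.12), so that 45.6% of the control level was left. In siCTR it was the fourth most abundant gene of the cadherin and catenin list, after JUP, CDH1 and CTNNA1. CDH1 had TPM values of 322 with siCTR and 439 with siCDH3 (0.45). The gene for p120-catenin, CTNND1, had TPM values of 67.9 with siCTR and 162 with siCDH3 (log2 ratio 1.24) and was the one catenin past 2-fold. Alpha-catenin and beta-catenin moved less: CTNNA1 had 199 and 163 (-0.28) and CTNNB1 had 116 and 115 (-0.01). Plakoglobin, the gamma-catenin shared with desmosomes, was close to level, with 326 and 319 (-0.03). Of the nectins, immunoglobulin-like adhesion molecules that support cadherin junctions, NECTIN1, NECTIN2 and NECTIN4 had log2 ratios of 0.23, 0.20 and 0.25, while the nectin-like receptor PVR had 46 and 31.9 (-0.51). In all, 14 of 22 genes of the list passed the filter, 1 was past 2-fold upward and 1 downward, and the list median was 0.06 against 0.03 for all genes.

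Other junction complexes kept most of their genes near the control level, with single exceptions. In the tight junction list CLDN4, a sealing claudin, had TPM values of 164 with siCTR and 14.4 with siCDH3 (log2 ratio -3.42), 11.3-fold lower, while the other claudins with high TPM were close to control: CLDN7 had 283 and 299.8 (0.08), CLDN12 had 136 and 143 (0.07) and CLDN3 had 81.6 and 75.9 (-0.10). The median of the 19 tight junction genes was 0.04. Of the 9 desmosome genes 6 lay below the median of all genes and the list median was -0.08. The desmosomal cadherin DSG2 was level, with 111 and 111 (0.00), and the plakin EVPL stood apart with 6.77 and 13.3 (0.88). Neither list had a gene at least 2-fold higher.

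At the basal side DAG1, which encodes dystroglycan, a receptor that ties laminin to the cytoskeleton, had TPM values of 55.1 with siCTR and 7.52 with siCDH3 (log2 ratio -2.72). The hemidesmosome integrin genes were slightly lower, with ITGA6 at 26.9 and 24.3 (-0.14) and ITGB4 at 34.8 and 30.7 (-0.17). DST, which anchors keratin to that integrin, was among the higher members with 25 and 34.1 (0.43). The median of the 17 genes of this list was 0.08, with 1 gene past 2-fold.

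Keratins had a list median of -0.16, which was -0.08 with no filter on low values, and 7 of 8 members lay below the median of all genes. Of the pair that fills simple epithelia, KRT8 had 679 and 604 (-0.17) and KRT18 had 490.3 and 443 (-0.15), and their relative KRT7 had 1214 and 1049 (-0.21). KRT20, an intestinal-type keratin of low level here, was the highest with 7.2 and 10.8 (0.52). None was past 2-fold, and each of these differences is within the range that holds 91.9% of all genes except that of KRT20.

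Genes of epithelial identity stayed close to control, 24 genes with a median of 0.02 and none past 2-fold. The lowest was the ETS factor gene EHF at 82.5 and 65.8 (-0.32), and the highest was TFAP2A (AP-2alpha), with 27.2 and 42.3 (0.62). Of the mesenchymal list 9 of 12 measured genes lay above the median of all genes, with a list median of 0.13. The highest were the matrix genes TNC at 187 and 239 (0.35) and FN1 at 96.8 and 119 (0.29), followed by TGFBI with 134 and 161 (0.26) and the transcription factor gene TWIST2 with 15 and 17.3 (0.19), and the repressor gene SNAI1 was close to the median of all genes with 10.7 and 11 (0.04). The lowest were the actin-binding gene CALD1, with 34.7 and 25.3 (-0.44), and the intermediate filament gene VIM, with 9.64 and 8.2 (-0.21). None of them was past 2-fold.

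Among lung lineage genes NKX2-1, the factor that specifies lung epithelium and marks adenocarcinoma, had TPM values of 19.7 with siCTR and 39 with siCDH3 (log2 ratio 0.95), just under 2-fold. Its neighbours in the lineage moved little: FOXA1 had 55.2 and 69.4 (0.32), SOX2 had 65 and 84.2 (0.37) and SFTA2 had 259 and 245 (-0.08). The secretory gene LCN2 was the most abundant of the list, with 12268 and 13455 (0.13). The 24 measured genes had a median of 0.08. Of 23 squamous and basal genes only 9 passed the filter, with a median of 0.18. The highest was PI3 (elafin, an elastase inhibitor made by inflamed epithelia), with 14.7 and 30.5 (0.999).

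**Figure D2:**
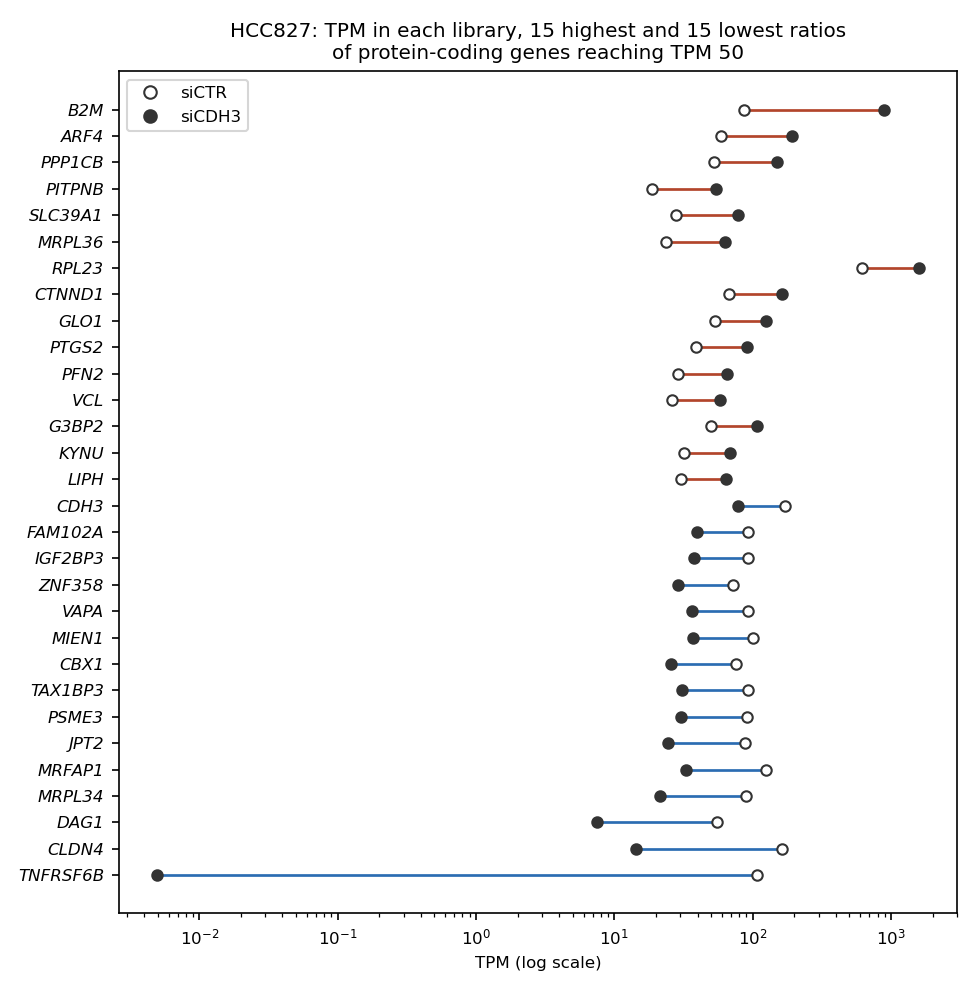
TPM on a log axis in siCTR (open circles) and siCDH3 (filled circles) for the 15 highest and 15 lowest log2 ratios among protein-coding, not read-through genes that reach a TPM of 50 in HCC827. B2M runs from 86.3 to 896 and CLDN4 from 164 to 14.4, while TNFRSF6B runs off the range of all others to 0.00493.

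The inflammatory genes of HCC827 were on the higher side. Chemokine genes of the CXC family that attract neutrophils lie side by side on chromosome 4 and are classical targets of NF-kB, a transcription factor family held in the cytoplasm by IkB proteins until a signal releases it. The promoters of 5 of them, and of MIR3142HG and B2M, carry the NF-kB consensus decamer. These stretches of 30 bases are shown because their genes were all higher in siCDH3, and were picked with those values known. They come from the RefSeq promoter table (GRCh38.p14), read 5′ to 3′ on the strand of the gene, with the decamer in capitals.
CXCL1 (chr4:73869304-73869333, plus strand): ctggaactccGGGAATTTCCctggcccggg
CXCL2 (chr4:74099254-74099283, minus strand): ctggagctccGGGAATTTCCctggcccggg
CXCL3 (chr4:74038749-74038778, minus strand): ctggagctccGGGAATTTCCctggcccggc
CXCL5 (chr4:73998749-73998778, minus strand): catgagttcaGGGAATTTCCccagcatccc
CXCL6 (chr4:73836578-73836607, plus strand): cctgagttcaGGGAATTTCCccagcatccc
MIR3142HG (chr5:160468121-160468150, plus strand): ggatctagaaGGGACTTTCCagagagggtt
B2M (chr15:44711382-44711411, plus strand; decamer on the other strand): actgaaaacgGGAAAGTCCCtctctctaac
The 5 chemokine promoters hold the same 10 letters, starting between 91 and 78 bases before the annotated start. CXCL1, CXCL2 and CXCL3 share most of the flanking letters too, as do CXCL5 and CXCL6.

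CXCL5 was the most abundant chemokine gene, with TPM values of 784 with siCTR and 1029.8 with siCDH3 (log2 ratio 0.39). CXCL1 had TPM values of 334 with siCTR and 573 with siCDH3 (log2 ratio 0.78) and CXCL8 (interleukin-8) had TPM values of 198 with siCTR and 332 with siCDH3 (log2 ratio 0.74). CXCL2 had 76.8 and 103 (0.41), CXCL3 had 31.7 and 47.2 (0.56) and CXCL6, at a low level in siCTR, had 7.91 and 17.4 (1.05). All 6 were higher in siCDH3, and their summed TPM was 1432 with siCTR and 2102 with siCDH3 (log2 ratio 0.55). PTGS2, the inducible cyclooxygenase that makes prostaglandins, had TPM values of 39.1 with siCTR and 91 with siCDH3 (log2 ratio 1.20). The interleukin genes IL1A, IL1B and IL23A had log2 ratios of 0.58, 0.52 and 0.87, the last with 23.9 and 44.5. IL18, an interleukin released after caspase-1 cleavage, was the lowest of the list at 27.6 and 20.5 (-0.41). Of 30 measured genes 21 lay above the median of all genes, and 2 were at least 2-fold higher (CXCL6 and PTGS2). The list median of 0.26 was the highest of the 44 lists with at least 5 measured genes, with replication-dependent histones next at 0.25.

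The NF-kB list itself, of subunits, inhibitors and targets, had 24 of 36 measured members above the median of all genes and a median of 0.15. Of the subunits, RELA had 49.9 and 70.5 (0.49) and NFKB1 had 35.5 and 46.4 (0.38). REL, another subunit, had 10.3 and 9.82 (-0.06). The inhibitors and brakes of the pathway lay on both sides. NFKBIZ (IkB-zeta) had 74.2 and 146 (0.96), TNFAIP3 (A20, a ubiquitin-editing brake) had 20.2 and 27.4 (0.43) and TNIP3, which binds A20, had 29.99 and 55.5 (0.87), whereas the IkB gene NFKBIE had 8.24 and 7.75 (-0.08), TNIP1, another A20 partner, 226 and 221 (-0.03) and the deubiquitinase gene CYLD 11 and 8.49 (-0.34). The adhesion molecule gene ICAM1, a target, had 231 and 212 (-0.12). NKRF, which encodes a DNA-binding repressor of some NF-kB targets, was the one member past 2-fold, with TPM values of 26.8 with siCTR and 3.74 with siCDH3 (log2 ratio -2.55). Upstream of NF-kB, and named after their values were seen, the interleukin-1 co-receptor gene IL1RAP had 8.11 and 17.5 (1.02) and the adaptor gene MYD88 had 24.5 and 11.6 (-1.02). The ratio of IL1RAP was 0.99 with the median of all genes set to 0.

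MIR3142HG, the long non-coding host gene of miR-146a, was listed at 0 in siCTR and at 13.9 in siCDH3. It was listed at 0 in both H1299 libraries. The small host-derived entry MIR146A had a TPM of 0.625 and 0.141, under the filter. Over the 250 bases before the start, both strands were searched and each gene symbol was counted once. The decamer was found for 1715 of 27305 symbols of the promoter table (6.28%) and for 671 of 8224 filtered genes with a promoter there (8.16%). Of the 111 genes at least 2-fold higher 72 had a promoter in the table, and 11 of these (15.3%) held the decamer. Of the 92 at least 2-fold lower 55 had one, and 3 of these (5.45%) held it. The 11 include CXCL6, B2M and MIR3142HG, shown above because they were higher, and the difference between the shares was not tested. The promoters of PTGS2, CXCL8, IL1A and IL1B do not hold the decamer in that window. Those of REL, CYLD and TNIP1, which were lower in siCDH3, do hold it.

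Of the genes for MHC class I, which shows peptides to T cells, B2M stood alone. B2M encodes the light chain common to all class I molecules and had TPM values of 86.3 with siCTR and 896 with siCDH3 (log2 ratio 3.36), 10.4-fold higher and the highest ratio of any gene reaching a TPM of 50. Of the class I heavy chain genes HLA-B had 239 and 324 (0.44), while HLA-F was the lowest of the list with 23.2 and 18.8 (-0.29). The class I transactivator gene NLRC5 had 9.72 and 14.8 (0.56), the peptide transporter gene TAP2 had 30.1 and 36.8 (0.28) and the immunoproteasome gene PSMB9 had 49.1 and 56 (0.19). Of the 26 measured genes 21 lay above the median of all genes, with a list median of 0.12 and B2M alone past 2-fold.

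In the list of immune ligands and TNF receptors both B7 family members past 2-fold were higher. CD276 (B7-H3) had TPM values of 16.6 with siCTR and 47 with siCDH3 (log2 ratio 1.45) and CD274 (PD-L1, the ligand of the checkpoint receptor PD-1) had TPM values of 3.19 with siCTR and 9.81 with siCDH3 (log2 ratio 1.37). CD47, the signal that restrains phagocytes, had 173 and 221 (0.35). TNFRSF6B, the gene for the soluble decoy receptor of FAS ligand, went the other way, with 108 and 0.00493. It shares exons with the read-through gene RTEL1-TNFRSF6B, which had 4.56 and 11.9, and their summed TPM was 112 and 11.9 (log2 ratio -3.14). The median of the 22 measured genes of this list was 0.14.

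Interferon-stimulated genes were shifted by a small amount in one direction. Of 52 measured genes 41 lay above the median of all genes, the list median was 0.13, and SAMD9L, an antiviral and growth-restraining gene, was the one past 2-fold, with 4.84 and 13.5 (1.31). The membrane antiviral gene IFITM2 had 9.04 and 16.4 (0.80), but a log2 ratio of -0.15 when summed with the genes that share its exons. The factor IRF1 had 25.1 and 37.4 (0.56) and the DNA sensor IFI16 had 156 and 224 (0.52). IFITM1 (log2 ratio -0.26) and GBP3 (-0.35) were lower. Sensors of foreign nucleic acid were near control: DDX58 had 12.1 and 13.4 (0.14) and IFIH1 had 21.2 and 23.1 (0.12), both receptors for double-stranded RNA. The exonuclease gene TREX1, which clears cytosolic DNA, had 0.562 and 6.75 (2.31), and with ATRIP, whose exons it shares, a summed TPM of 3.20 and 10.4 (1.43). The 21 genes of nucleic acid sensing had a median of 0.08. The 12 genes of the RNA interference machinery, which an siRNA uses, had a median of 0.06, with the slicer Argonaute gene AGO2 at 9.04 and 10.8 (0.23).

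**Figure D3:**
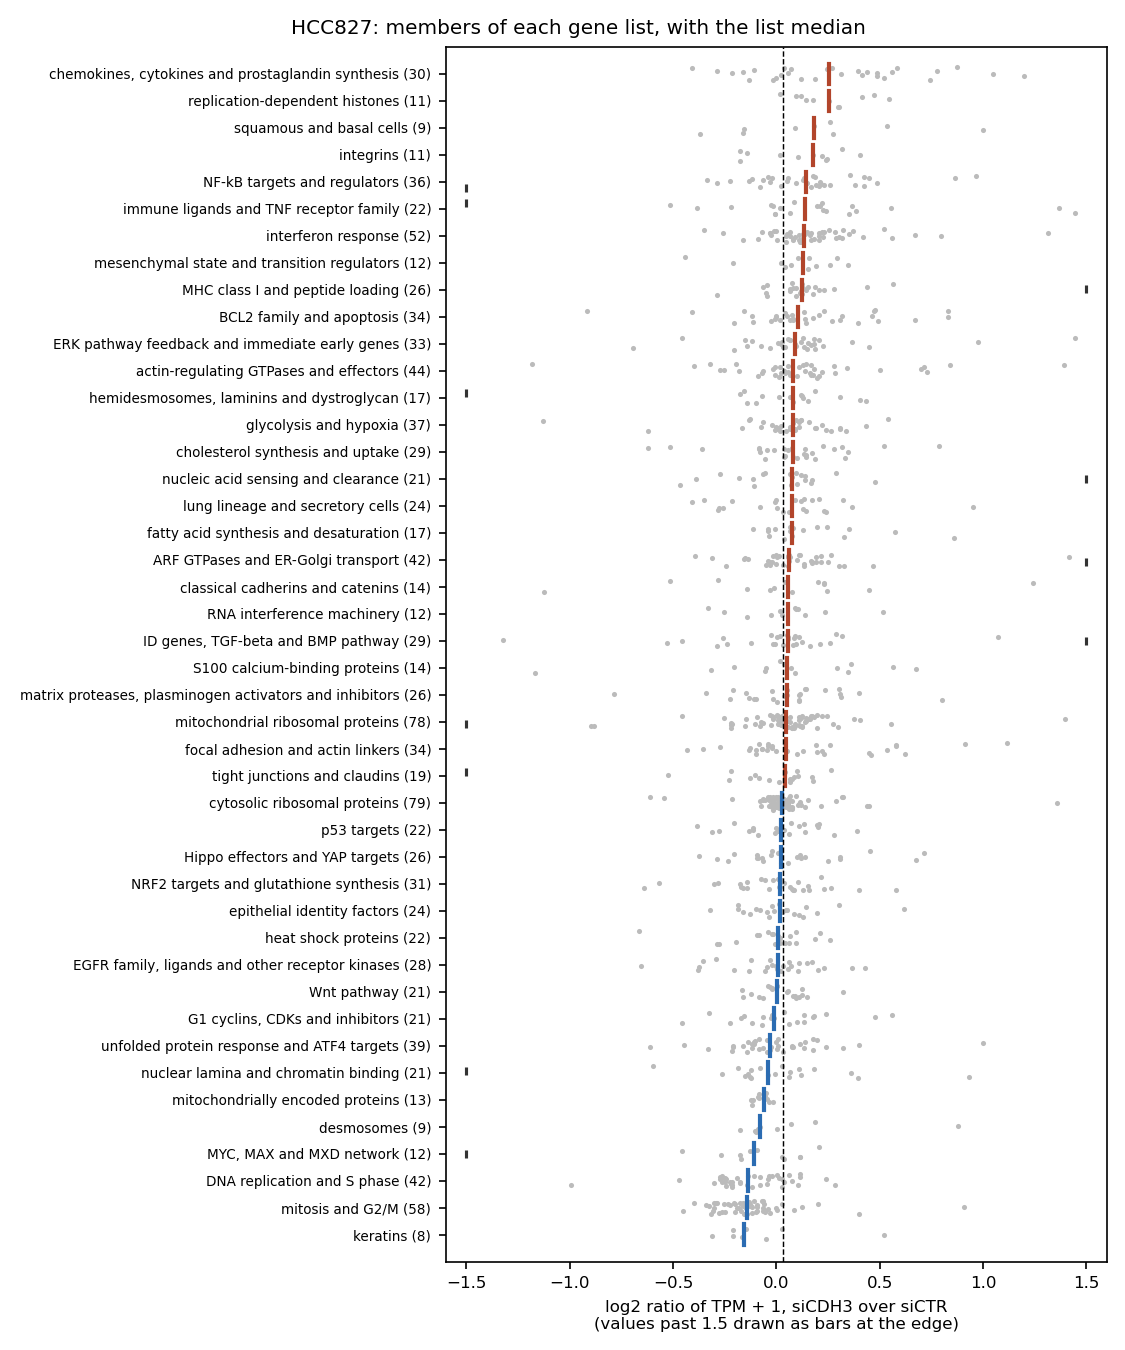
Log2 ratios of TPM + 1 in HCC827 of every measured member (grey points) of the 44 gene lists with at least 5 measured genes, with the list median (coloured bar, red above and blue below the median of all genes, dashed line) and the number of genes in brackets. Chemokines and cytokines lie at the top with a median of 0.26 and keratins, mitosis and S phase at the bottom, and most members lie within 0.5 of 0.

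The receptor on which HCC827 depends kept its level. EGFR had TPM values of 493 with siCTR and 504 with siCDH3 (log2 ratio 0.03), the receptor kinase MET had 296 and 334 (0.17) and the EGFR ligand AREG had 217 and 228 (0.07). The lowest of the 28 measured receptor and ligand genes was MST1R (RON), with 27.7 and 17.2 (-0.66), and the list median was 0.01. Among ERK-responsive genes, IER2 was the one past 2-fold, with 10.3 and 29.8 (1.44), and SPRY1, a feedback inhibitor of receptor kinase signalling, had 12.5 and 25.5 (0.98). The immediate early gene FOS had 89.8 and 123 (0.45) and EGR1 58.6 and 66.8 (0.19), while KLF10 had 72.4 and 44.4 (-0.69) and MYC had 20.3 and 14.5 (-0.46). This list of 33 measured genes had a median of 0.09.

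Proliferation genes were lower by a small amount almost throughout. Of 58 mitosis genes 53 lay below the median of all genes and the list median was -0.14. Of 42 genes of DNA replication 34 lay below, with a median of -0.14. No gene of either list was past 2-fold. In a bulk culture fewer dividing cells and less of these RNAs per cell cannot be told apart. PCNA, the sliding clamp of replication, had 89 and 76.6 (-0.21), TOP2A, the mitotic topoisomerase, 112 and 100.4 (-0.16) and KPNA2, a nuclear import receptor, 104 and 78.5 (-0.40). MKI67, the usual proliferation marker, had 12.8 and 13.6 (0.08). FOXM1, the factor that drives mitotic genes, was higher, with 26.2 and 49.99 (0.91).

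Regulators of the G1 phase had a median of -0.01 over 21 genes, none past 2-fold. CCND1 had TPM values of 148 with siCTR and 126 with siCDH3 (-0.23) and SKP2 had 8.66 and 13.2 (0.56), the latter encoding the ubiquitin ligase subunit that removes p27. Of the MYC network 8 of 12 genes lay below the median of all genes, and the list median was -0.11. MXD1, a repressor that competes with MYC for MAX, had 10.7 and 1.51 (-2.23). Summed with SNRNP27, with which it shares exon bases, its TPM was 42.5 and 39.2 (log2 ratio -0.11). Replication-dependent histones are a class whose messages typically lack the usual poly(A) tail, and 11 of the 25 listed genes passed the filter. Of these 11 measured genes 10 lay above the median of all genes, with a list median of 0.25. HIST1H2BC was the highest, with 19.1 and 28.3 (0.54).

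In the TGF-beta and BMP list ID2, a helix-loop-helix protein that blocks differentiation factors, had TPM values of 28.6 with siCTR and 10.9 with siCDH3 (log2 ratio -1.32). Its relative ID1 was level, with 379 and 383 (0.02). Both co-repressors of SMAD proteins that were past 2-fold were higher: SKIL had 3.76 and 9.02 (1.07), and TGIF2 had 2.8 and 13.6 (1.94). Of the SMAD genes SMAD5 was the lowest, with 17.3 and 12.4 (-0.46), and SMAD3 the highest, with 83.2 and 93.2 (0.16), and the list of 29 measured genes had a median of 0.05. The Wnt list had no gene beyond -0.17 or 0.32 among 21 measured genes, and its median was 0.00. In the Hippo list YAP1 had 49.9 and 38.2 (-0.38) and the upstream kinase STK4 had 7.7 and 13.3 (0.71), with a median of 0.02 over 26 genes.

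Among genes that tie the cell to matrix and actin, vinculin stood out. This protein couples both integrins and cadherins to actin, and its gene VCL had TPM values of 26.2 with siCTR and 58.1 with siCDH3 (log2 ratio 1.12). LIMS1 (PINCH1, a partner of integrin-linked kinase) had 8.38 and 16.6 (0.91), ZYX (zyxin) had 74.1 and 111 (0.58) and ACTN4 (alpha-actinin-4) was lower with 231 and 171 (-0.43). Of the 34 measured focal adhesion genes 18 lay above the median of all genes, VCL alone was past 2-fold, and the list median was 0.04. The integrin list had a median of 0.17 over 11 genes and none past 2-fold, with ITGB1 at 491 and 581 (0.24) and ITGB5 at 31.2 and 41.6 (0.40) on the higher side and ITGA3 at 248 and 219 (-0.17) on the lower.

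Among genes of actin control RHOQ (TC10), a small GTPase, which acts in membrane traffic and filopodia, had TPM values of 13.7 with siCTR and 37.8 with siCDH3 (log2 ratio 1.39). RHOC, linked to cell motility, had 99.8 and 179 (0.84), and the actin-severing gene CFL1 had 422 and 598 (0.50). The actin-binding gene PFN2, named here as one of the 15 highest abundant genes, had 28.7 and 65 (1.15). ARHGAP8, a GTPase-activating protein gene, had 36.2 and 15.4 (-1.18), while its read-through partner PRR5-ARHGAP8 had 1.89 and 16.4 (2.59), and both together had 38.1 and 31.8 (-0.25). The list of actin-regulating GTPases and their effectors had a median of 0.08 over 44 measured genes. Secreted and membrane proteases had a median of 0.05 over 26 genes, with MMP7 (matrilysin) the highest at 11.2 and 20.2 (0.80) and TMPRSS4 the lowest at 58.5 and 33.5 (-0.79). In the S100 and annexin list, median 0.05 over 14 genes, ANXA2 had 587 and 939 (0.68) and S100A6 had 783 and 629 (-0.32). The calgranulin genes S100A8 and S100A9 had log2 ratios of 0.56 and 0.35. S100A13 was past 2-fold alone, with 49.5 and 21.4 (-1.17), but not when summed with the gene that shares its exons (-0.61).

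Cell death regulators showed no member past 2-fold among 34 measured genes, with 23 above the median of all genes and a list median of 0.11. The BH3-only gene PMAIP1 (NOXA) had 22.6 and 41 (0.83) and the initiator caspase gene CASP2 had 4.48 and 8.74 (0.83). The survival gene BCL2L2 was the lowest, with 13.5 and 6.67 (-0.92); with its read-through partner the log2 ratio was -0.34. Targets of p53 had a median of 0.02 over 22 genes and ranged from -0.38 for the death receptor gene FAS to 0.39 for PLK2. In the unfolded protein response list (median -0.03, 39 genes) TRIB3, a pseudokinase induced by ATF4 and CHOP, had 103 and 206 (0.999), whereas ATF4 itself had 596 and 516 (-0.21) and HERPUD1, of ER-associated degradation, had 65.9 and 42.8 (-0.61). Heat shock genes had a median of 0.01 over 22 genes, the lowest being the co-chaperone gene DNAJB6 at 67.7 and 42.2 (-0.67). NRF2 targets had a median of 0.02 over 31 genes, and the NRF2 inhibitor gene KEAP1 had 38.3 and 25.5 (-0.57).

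No lipid synthesis gene was past 2-fold. ACACA, the acetyl-CoA carboxylase that commits carbon to fatty acids, had 39.8 and 73.1 (0.86), and the fatty acid list had a median of 0.07 over 17 genes. DHCR7, the last enzyme of cholesterol synthesis, had 49.8 and 86.7 (0.79), and TMEM97, a sterol-regulated membrane protein gene, was the lowest of its list with 8.85 and 5.41 (-0.62), with a list median of 0.08 over 29 genes. In the glycolysis and hypoxia list (median 0.08, 37 genes) the mitophagy receptor gene BNIP3L had 44.3 and 19.7 (-1.13), and the glycolytic enzyme gene GAPDH was level, with 5133 and 5116 (0.00).

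All 13 mitochondrially encoded protein genes lay below the median of all genes, between -0.12 and -0.02. The mitochondrial ribosome list had a median of 0.04 over 78 genes, and only MRPL34 and MRPL36 were past 2-fold, in opposite directions: MRPL34 had 89.4 and 21.5 (-2.01) and MRPL36 had 23.6 and 63.6 (1.39). Of the 79 cytosolic ribosomal protein genes, with a median of 0.03, RPL23 alone was past 2-fold. RPL23, a large-subunit protein that can also bind MDM2, had TPM values of 621 with siCTR and 1593 with siCDH3 (log2 ratio 1.36), a gain of 972 TPM. Ribosomal protein genes have many processed pseudogenes, so the sharing of reads among copies makes such a value uncertain. RPL14 (-0.61) and RPS14 (-0.55) lay at the other end of the list.

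The ER-Golgi list had 42 measured genes with a median of 0.06, and both genes past 2-fold were small GTPases that recruit vesicle coats: ARF4 had 59.1 and 193 (1.69), and SAR1A had 13.5 and 37.8 (1.42). Of their relatives, ARF1 had 455 and 474 (0.06) and SAR1B had 13.5 and 19 (0.47). Single genes outside that list were past 2-fold too: the Golgi adaptor gene GOPC had 5.66 and 17.2 (1.45), the SNARE gene STX16 had 29.2 and 61.3 (1.05) and the phosphatidylinositol transfer protein gene PITPNB had 18.8 and 54.1 (1.48), while VAPA, which tethers the ER to other membranes, was lower with 91.9 and 36.8 (-1.30).

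In the nuclear list (median -0.04, 21 genes) CBX1, the heterochromatin protein HP1-beta, had TPM values of 75.8 with siCTR and 25.6 with siCDH3 (log2 ratio -1.53), while its relative CBX5 had 24 and 21.7 (-0.14). The chromatin gene HMGB1 had 100.2 and 65.9 (-0.60). Outside the lists, single genes of RNA binding were past 2-fold in both directions. The m6A reader gene YTHDF2 had 33.9 and 12.3 (-1.40), and IGF2BP3, an oncofetal mRNA-binding protein gene, 92.8 and 38 (-1.27). MEX3C, an RNA-binding ubiquitin ligase gene, was higher with 2.8 and 12.3 (1.81), and so was the stress granule gene G3BP2, with 50.2 and 108 (1.09).

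Protein turnover genes appeared at both ends. TNFAIP1, an adaptor of a cullin-3 ubiquitin ligase, had TPM values of 7.93 with siCTR and 28.9 with siCDH3 (log2 ratio 1.75). UBE2V2, a cofactor for lysine-63 ubiquitin chains, had 20.9 and 45.2 (1.08). PSME3, the nuclear activator of the proteasome, was lower with 90.6 and 30.3 (-1.549). The abundant lower genes also included MRFAP1, which binds MORF family chromatin proteins, with 125 and 33.2 (-1.88), JPT2 with 88.8 and 24.6 (-1.81), and MIEN1, the neighbour of ERBB2, with 101 and 37 (-1.42). PPP1CB, a catalytic subunit of protein phosphatase 1, was higher with 53.1 and 150.1 (1.48).

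Single genes of enzymes and transporters outside the lists were past 2-fold in both directions. Among the higher ones KYNU, kynureninase of tryptophan breakdown, had 31.7 and 68.4 (1.08), GLO1, which detoxifies methylglyoxal, had 53.8 and 125 (1.21) and LIPH, a phospholipase that makes lysophosphatidic acid, had 30.5 and 64.6 (1.06). The zinc importer gene SLC39A1 had 27.9 and 78.7 (1.46). Among the lower ones MPI, the mannose phosphate isomerase that feeds glycosylation, had 42.8 and 16.8 (-1.30), and the solute carrier family genes SLC35F6 had 31 and 8.19 (-1.80) and SLC10A3 had 18.1 and 6.24 (-1.40). In absolute TPM the largest gain was that of RPS2, a small-subunit ribosomal protein gene, with 3436 and 4660.1 (0.44), and the actin gene ACTB at 1635 and 2349 (0.52) and the ferritin gene FTH1 at 4239 and 4726 (0.16) were also among the 10 largest, each under 2-fold.

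Some genes past 2-fold share exons with a neighbour, and reads of a shared exon can be given to either gene. Of the 203 genes, 59 (29.1%) share exon bases on the same strand with another gene of TPM 1 or more in GENCODE release 29, against 958 (8.68%) of all 11043. When TPM was summed over such genes, 15 of the 59 stayed past 2-fold in the same direction, 42 were under 2-fold, and the read-through genes RTEL1-TNFRSF6B and AC008878.1 were past it in the opposite direction. Read-through genes, whose transcripts run from one gene into the next, made up 20 of the 203, that is 24.7% of the 81 that passed the filter. SENP3-EIF4A1 had 20.2 and 117 (2.47), but its summed locus, which includes EIF4A1, had a log2 ratio of -0.02. Of the other 144 genes, which have no such partner, 81 were higher and 63 lower, and B2M, CLDN4, DAG1, CTNND1, CDH3, NKRF, ARF4, CD274 and PTGS2 are among them.

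**Figure D4:**
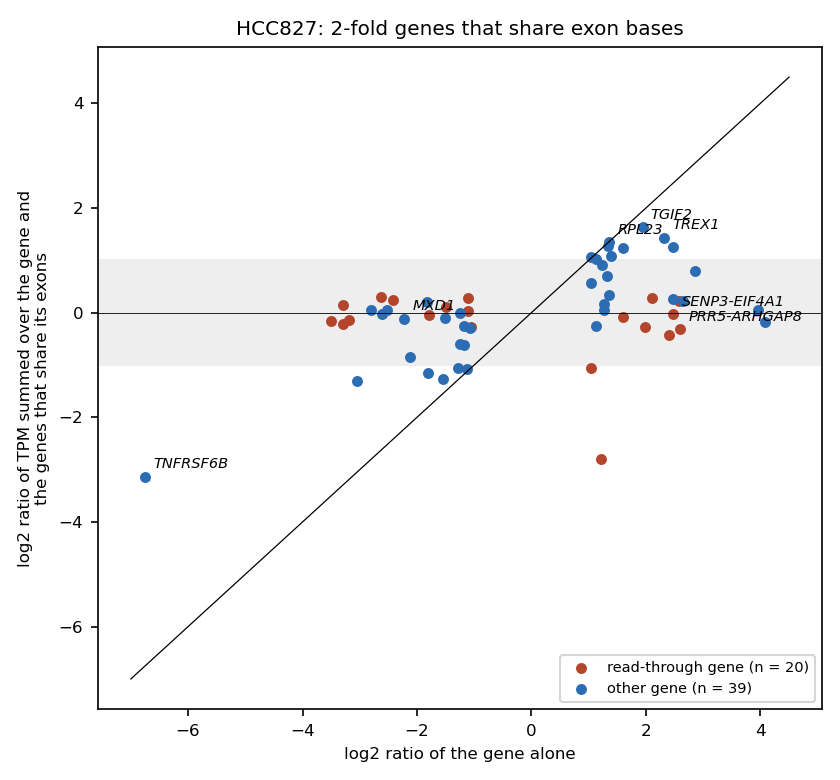
Each point is 1 of the 59 genes past 2-fold that share exon bases with another gene, with the log2 ratio of the gene alone on the x axis and that of the summed locus on the y axis, read-through genes in red and others in blue. Within the grey band (under 2-fold) lie 42 of them, MXD1 included, while TREX1, TGIF2 and RPL23 lie above the band, RPL23 close to the diagonal of equal values and TREX1 below it.

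Of 24 snoRNA genes that passed the filter 9 (37.5%) were past 2-fold, 4 higher and 5 lower, and of 452 long non-coding genes 12 (2.65%) were, against 1.84% of all genes. SnoRNAs guide chemical modification of ribosomal RNA. All 9 snoRNA genes past 2-fold share exon bases with another gene, and their summed log2 ratios lay between -0.18 (SNORD10) and 0.25 (SNORA17). SNORD10 had 0.0186 and 16.2 (4.08) and shares exon bases with EIF4A1, with which its summed log2 ratio was -0.18. SNORD24 and SNORD36A, both within RPL7A, had log2 ratios of opposite sign, -2.81 and 3.96, and each summed with RPL7A was under 0.1. Of the 12 long non-coding genes past 2-fold 5 were higher, MIR3142HG among them, and 7 were lower. Among the lower ones OIP5-AS1 had 14.1 and 4.96 (-1.34) and LINC00339 had 19 and 7.84 (-1.18).

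Finally the genes past 2-fold in HCC827 were set beside the same ratio in H1299, where 286 of 11622 genes (2.46%) were past 2-fold, 102 higher (0.878%) and 184 lower (1.58%). CDH3 was already near 0 in H1299, with a TPM of 1.21 and 0.169. The 2 lines share no library, and the difference between their ratios was not tested. Of the 84 higher genes that passed the filter in H1299, 13 were past 2-fold in the same direction there and 6 in the opposite one. The 13 are 11.7% of the higher genes of HCC827 and 12.7% of those of H1299. Of the 76 lower genes that passed, 13 were past 2-fold in the same direction (14.1% and 7.07% of the lower genes of each line) and 8 in the opposite one. The sign was the same for 39 of the 84 and 50 of the 76, and the other 43 of the 203 did not pass the filter in H1299. The median of all genes in H1299 was -0.11, so most had a negative ratio there. Beside this, the median H1299 ratio was -0.03 for the 84 and -0.27 for the 76. Across the 9724 genes that passed in both lines, Pearson's r of the log2 ratios was 0.127, as a description across genes.

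Higher in both lines were TNFAIP1, with a TPM in H1299 of 10.7 and 31.1, GLO1 with 108 and 259, UBE2V2 with 37.9 and 97.9 and the secreted neuropeptide precursor gene VGF, which had 6.17 and 13.6 in HCC827 and 49.8 and 210.0 in H1299. The HCC827 ratio of VGF, 1.02, was 0.99 with the median of all genes set to 0. Lower in both were VAPA with 152 and 74.1 in H1299, MPI with 52.8 and 13.3, JPT2 with 63.7 and 16.1 and TNFRSF6B with 80.8 and 0.00849. The read-through gene RTEL1-TNFRSF6B, which shares exons with TNFRSF6B, had 7.08 and 15.2 in H1299. VAPA passed 2-fold in H1299 by less than the shift of the median of all genes there (-0.11). Of the inflammatory genes, the 6 chemokines above had a summed TPM of 92 and 94.9 in H1299, PTGS2 had 0.103 and 0 and CXCL6 was listed at 0 in both libraries. CXCL1 had 1.01 and 2.24 in H1299, CXCL3 2.44 and 2.17 and CXCL8 0.486 and 0.475, all under the filter there. B2M had 337 and 265, CLDN4 9.1 and 10.3 and DAG1 111 and 74.8 in H1299, none of them past 2-fold there. The list medians in H1299, where the median of all genes was -0.11, were 0.03 for the 9 measured chemokine and cytokine genes, -0.06 for NF-kB, -0.17 for mitosis, -0.25 for S phase, -0.20 for integrins, 0.19 for the interferon response and 0.17 for histones. Against the median of all genes the interferon list lay 0.30 higher in H1299 and 0.11 higher in HCC827, and the histone list 0.28 and 0.22 higher.

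**Figure D5:**
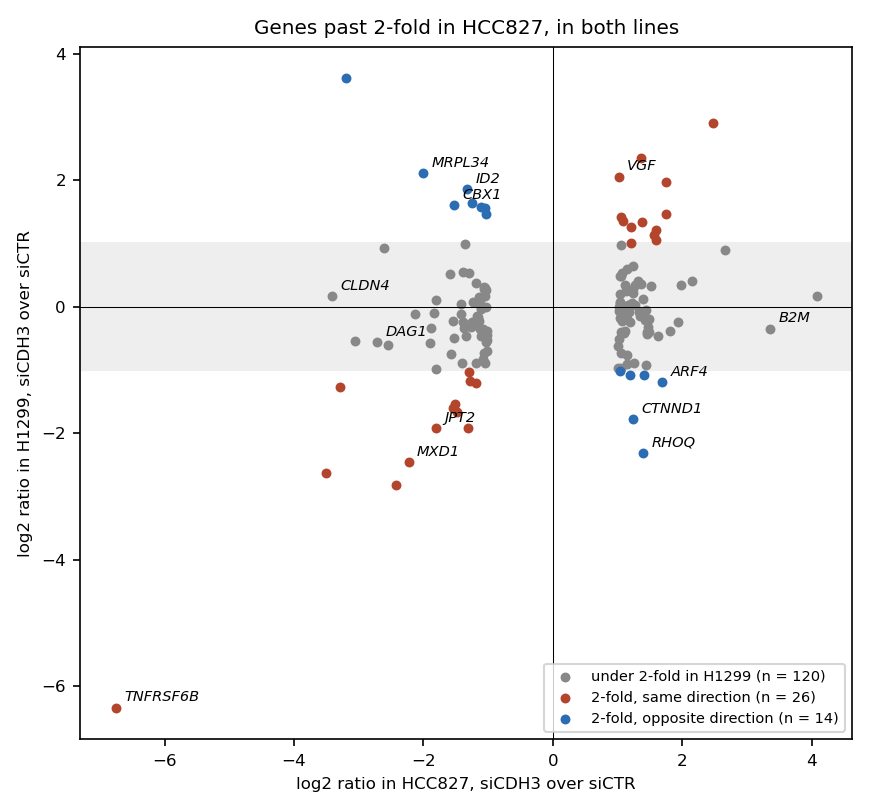
Log2 ratio of TPM + 1, siCDH3 over siCTR, in HCC827 (x axis) and H1299 (y axis) for the 160 genes past 2-fold in HCC827 that passed the filter in H1299. The grey band holds the 120 genes under 2-fold in H1299, with 26 past 2-fold in the same direction in red and 14 in the opposite direction in blue.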

How the data were processed

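Total RNA of 4 libraries (HCC827 and H1299, siCTR and siCDH3, 1 library per group) was extracted with a commercial reagent and made into libraries by an Illumina protocol, per the labels' protocols. The authors deposited gene-level TPM, 1 column per library and no column without a sample. The genome build is hg19, per the submitters' processing notes. Aligner, quantifier, annotation release and strandedness are not named by any source used here, and TPM keeps no depth, so no counting interval or floor can be given. TPM is relative to the library total, so a gain in abundant genes lowers the values of the rest.

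The log2 ratio of TPM + 1 was taken in each line for genes that reach a TPM of 5 in one or both of its libraries, and genes past 2-fold were counted. The pseudocount of 1 pulls ratios of low genes toward 0. With 1 library per group no test was run. Of the gene identifiers 57836 of 58174 (99.4%) are in GENCODE release 29, a later build used only for gene types and for which genes share exon bases. Promoter sequences and their coordinates are from RefSeq (GRCh38.p14), matched by symbol. Sums over genes that share exons were added after seeing the data, and the other alternatives were planned: pseudocounts of 0.1 and 5, filters at TPM 1, TPM 20 and none, a median set to 0, TPM rescaled without mitochondrially encoded and cytosolic ribosomal protein genes, thresholds of 1.5-fold and 4-fold, quantile normalization, and read-through genes left out. The work used Python 3.11.15, pandas 2.3.3 and numpy 2.4.6, and the calculation was tested on simulated data.

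The comparison and the 47 gene lists (1460 genes) were chosen with earlier results of these data known. The genes named are CDH3 and its list, the 25 highest and 25 lowest protein-coding ratios, the 15 highest and 15 lowest reaching a TPM of 50, the 10 largest gains and losses of TPM, the 5 highest and 5 lowest non-coding ratios, up to 8 members per list with the largest ratios, read-through genes past 2-fold and genes past 2-fold in both lines. Chosen after their values were seen, mostly as relatives or markers set beside those, are ACTN4, AREG, ARF1, ATF4, CBX5, CD47, CLDN12, CLDN3, CLDN7, CXCL2, CXCL5, CYLD, DDX58, DSG2, EGFR, EGR1, EPCAM, GAPDH, GBP3, GPRIN1, ICAM1, ID1, IFIH1, IFITM1, IL18, IL1RAP, ITGA6, LINC00339, MET, MIR146A, MKI67, MON2, MYD88, NAPSA, NFKBIE, NMB, OIP5-AS1, PCNA, PDGFRA, RAB11A, REL, SFTA2, SFTPB, SFTPC, SMAD3, SNAI1, TNIP1 and TOP2A. Some genes of these lists and rules are not reported here.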

Additional observations from a re-analysis of the deposited data

Results flagged for a closer look

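Of the genes past 2-fold in HCC827, 14 were past 2-fold in the opposite direction in H1299, and the difference between the lines was not tested. Each ratio rests on 1 library per group. The median of all genes in H1299 was -0.11, and the H1299 ratios were not re-centred on it. Of the 14, MANSC1, ABHD10 and NUDT16 passed 2-fold in H1299 by less than that shift.

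The 6 genes higher in HCC827 and lower in H1299 include the partner of P-cadherin, CTNND1, with a log2 ratio of 1.24 in HCC827 and -1.78 in H1299. ARF4, which recruits vesicle coats at the Golgi, had 1.69 and -1.20, and RHOQ, a small GTPase, had 1.39 and -2.32. MANSC1 had 1.41 and -1.07. ABHD10, a mitochondrial hydrolase gene, had 1.19 and -1.09, and NUDT16, which hydrolyses nucleotides, had 1.03 and -1.03, the first falling just short of 2-fold (0.999) with quantile normalization.

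The 8 genes lower in HCC827 and higher in H1299 include ID2, an inhibitor of helix-loop-helix factors, with -1.32 in HCC827 and 1.86 in H1299. CBX1, the gene of heterochromatin protein HP1-beta, had -1.53 and 1.60. MRPL34, of the mitochondrial ribosome, had -2.01 and 2.11, and the acid-sensing channel gene ASIC1 had -1.03 and 1.46. The read-through genes C7orf55-LUC7L2 (-3.19 and 3.61), ISY1-RAB43 (-1.12 and 1.57) and AC068580.4 (-1.05 and 1.57) and the small RNA gene SNORD4B (-1.24 and 1.64) share exon bases with other genes. Summed with them their log2 ratios in HCC827 were -0.13, 0.02, -0.28 and -0.02.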

How the results depend on the processing

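No paired analysis was possible because each group has 1 library, and for the same reason no library could be left out. The 111 higher and 92 lower genes became 53 and 46 with a pseudocount of 5, 193 and 180 with a filter at TPM 1 and with no filter, 50 and 48 with a filter at TPM 20, 370 and 280 at 1.5-fold and 15 and 18 at 4-fold. With TPM rescaled without mitochondrially encoded and cytosolic ribosomal protein genes 154 genes were lower and 146 higher. The rescaled values are larger, so more genes pass the filter. Each library is also rescaled by its own remaining total, which moves the ratios. How much each adds to the change in counts was not tested. The other settings gave between 93 and 134 higher and between 74 and 111 lower genes. CDH3 stayed at least 2-fold lower in every setting, between -1.17 and -1.09. Of the 113 named genes past 2-fold, a pseudocount of 5 put 29 under it, CD274, CXCL6, SAMD9L and SKIL among them. Summing TPM over genes that share exons put 15 under 2-fold and turned the sign of 16. These were RTEL1-TNFRSF6B (-2.79), AC008878.1 (-1.06), ST20-MTHFS (-0.43), PRR5-ARHGAP8 (-0.32), AL157935.2 (-0.28), SNORD10 (-0.18), AC007192.1 (-0.078), SENP3-EIF4A1 (-0.024), ISY1-RAB43 (0.024), SNORD24 (0.041), SNORD27 (0.041), AC138811.2 (0.10), AC026954.2 (0.14), AL136295.4 (0.24), RPS10-NUDT3 (0.27) and AC007326.4 (0.29), where the sum is set by the more abundant partner. Of the list medians, chemokines went to 0.39 and the MYC network to 0.03 with a filter at TPM 20. With no filter squamous genes went to -0.004, immune ligands to 0.02, histones to 0.14 and keratins to -0.08. Immune ligands went to 0.04 with rescaled TPM. Over the settings in which list medians were taken, that of chemokines lay between 0.19 and 0.39 and that of histones between 0.14 and 0.28. Depth is unknown, so how much of a ratio at low TPM is counting error cannot be given.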
